A study of Mus musculus with 11 samples.

Results

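The 10 genes described here belong to the Notch pathway and were measured in fragments of brain vessels from the ipsilateral hemisphere after MCAO, a stroke model in which the middle cerebral artery is blocked. They were chosen by name, with earlier results of these data known, as the receptors, ligands and target genes of Notch signalling in endothelium: the receptors Notch1 and Notch4, the ligands Dll4, Dll1, Jag1 and Jag2, and the targets Hey1, Hey2, Heyl and Hes1. Each had 1 probe set with its symbol, so 10 of the 30790 genes with a single symbol on the arrays are described here. All mice were adult C57BL/6 males with MCAO, and they had received imatinib, an inhibitor of tyrosine kinases such as the PDGF receptors, or PBS, a salt solution without the drug. The vessels were collected 3 h after occlusion, following 3 treatments given beforehand, or 24 h after it, following a further treatment that brought the number to 4. The 4 groups held 3 arrays for PBS at 3 h, 2 for imatinib at 3 h, 3 for PBS at 24 h and 3 for imatinib at 24 h. Vessels without an occlusion were not analysed here, so the levels have no baseline. The labels do not say whether the arrays of a group came from separate animals, and p-values measure only the spread between these arrays, which may be technical.

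The values are log2 signals, in which a step of 1 is a doubling of the signal. Array medians ranged from 5.17 to 5.25 over 11 arrays, and the members' signals between 5.55 and 9.50. None of the members lay below the 25th percentile of any array (3.83 to 3.92). Arrays of the same group correlated with r of 0.988 to 0.993 across genes. PBS 3 h replicate 1 stood apart on the second principal component, which held 7.99% of the variance, while the first, with 50.2%, separated the times. The endothelial markers Pecam1, Cdh5 and Cldn5 had group means of 10.09 to 11.67, so the labelled tissue carried its defining genes. Markers of microglia had signal as well. Group means were 11.49 to 11.88 for Cx3cr1, 10.45 to 11.03 for P2ry12 and 7.69 to 8.28 for Tmem119. Signals of different probe sets are not compared with each other, because probes differ in how strongly they bind.

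Notch receptors are cleaved when a ligand on a neighbouring cell binds them. The freed intracellular part joins the DNA-binding protein RBPJ and the Mastermind coactivators and switches on genes of the Hes and Hey families, which encode transcriptional repressors. In blood vessels Notch is known for restraining sprouting of endothelial cells and for arterial identity, and Notch signals from endothelium also act on the pericytes and smooth muscle cells around it.

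In PBS-treated mice 6 of the 10 genes were lower at 24 h than at 3 h after occlusion: Notch1, Jag1, Jag2, Hey1, Hey2 and Heyl. Across all genes 16.6% passed the same test (limma, adjusted p under 0.05) and 7.28% passed it as lower at 24 h. The differences of the 10 genes, 24 h minus 3 h, had a median of -0.67 on the log2 scale, against -0.021 over all genes. All 10 differences were below 0, although 4 of them (Notch4, Dll4, Dll1 and Hes1) were above 0 when each array was scaled to its endothelial markers. In 8 of the 10 genes every array at 24 h lay below every array at 3 h, which held for 14.7% of all genes. In bulk samples such as these, fewer cells of a type and less RNA per cell cannot be told apart.

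Among the receptors, Notch1, which endothelial cells use widely, had signals of 8.99, 8.81 and 9.004 on the PBS arrays at 3 h and of 8.43, 8.30 and 8.41 at 24 h. The times did not overlap, and each 24 h array was below the lowest 3 h array. Notch1 fell by 0.56 ± 0.095 (SE, 1.47-fold), with an adjusted p of 0.00174. Notch4, a receptor largely restricted to endothelium, read 8.72, 8.56 and 8.84 at 3 h and 8.47, 8.30 and 8.33 at 24 h. These also did not overlap, but the gap between the closest arrays was small. The Notch4 difference was -0.34 ± 0.11 and missed the threshold (adjusted p = 0.0598, 95% interval -0.58 to -0.096), and it passed without PBS 3 h replicate 2 (-0.41, adjusted p = 0.0407).

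Of the ligands, the Jagged pair was lower at 24 h and the Delta-like pair was not called. Jag2 had the largest difference of the 10 genes. Its PBS arrays read 9.41, 9.21 and 9.32 at 3 h and 8.16, 8.23 and 7.95 at 24 h. The times were nearly a full log2 unit apart at their closest arrays. Jag2 fell by 1.20 ± 0.11 (2.30-fold, adjusted p = 2.7e-05). Jag1, a ligand that endothelial cells present to each other and to smooth muscle, read 8.79, 8.85 and 9.24 at 3 h and 8.33, 8.14 and 7.94 at 24 h. Every 24 h array lay below the 3 h arrays, and the spread within both times was wider than for Jag2. Jag1 fell by 0.82 ± 0.14 (1.77-fold, adjusted p = 0.0016).

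Dll4, the ligand of arterial and sprouting endothelium, read 8.04, 8.12 and 8.58 at 3 h and 8.28, 7.92 and 8.07 at 24 h. Its times overlapped, and PBS 3 h replicate 3 was the highest of the PBS arrays. The Dll4 difference was -0.16 ± 0.19 (adjusted p = 0.676), with an interval of -0.57 to 0.26 that leaves room for a fall as large as that of Notch1. Dll1 read 6.11, 5.85 and 5.95 at 3 h and 5.98, 5.84 and 6.05 at 24 h, values that overlapped fully. The Dll1 difference was -0.014 ± 0.11 (adjusted p = 0.962, interval -0.26 to 0.24).

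Of the targets, the 3 Hey genes were lower at 24 h and Hes1 was not called. Hey1 read 9.22, 9.30 and 9.28 at 3 h and 8.33, 8.51 and 8.24 at 24 h. The 3 h arrays lay close together and well above those of 24 h. Hey1 fell by 0.91 ± 0.12 (1.88-fold, adjusted p = 0.000351). Hey2, known for its role in arterial development, read 7.54, 8.04 and 7.65 at 3 h and 6.91, 7.02 and 6.73 at 24 h. The times did not overlap, and PBS 3 h replicate 2 was the high array. Hey2 fell by 0.86 ± 0.16 (1.81-fold, adjusted p = 0.00278).

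Heyl, a family member known from mural cells, the pericytes and smooth muscle of the vessel wall, read 7.85, 7.95 and 7.61 at 3 h and 7.16, 6.70 and 7.20 at 24 h. The times did not overlap, and PBS 24 h replicate 2 was the lowest of all arrays. Heyl fell by 0.78 ± 0.14 (1.72-fold, adjusted p = 0.00284). Hes1, a target that many cell types express, read 7.93, 7.75 and 7.98 at 3 h and 7.65, 7.58 and 7.59 at 24 h. The times were apart by a narrow margin. The Hes1 difference of -0.28 ± 0.11 missed the threshold (adjusted p = 0.132, interval -0.53 to -0.031). The 6 calls of this comparison stood without each of the 11 arrays in turn.

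**Figure D1:**
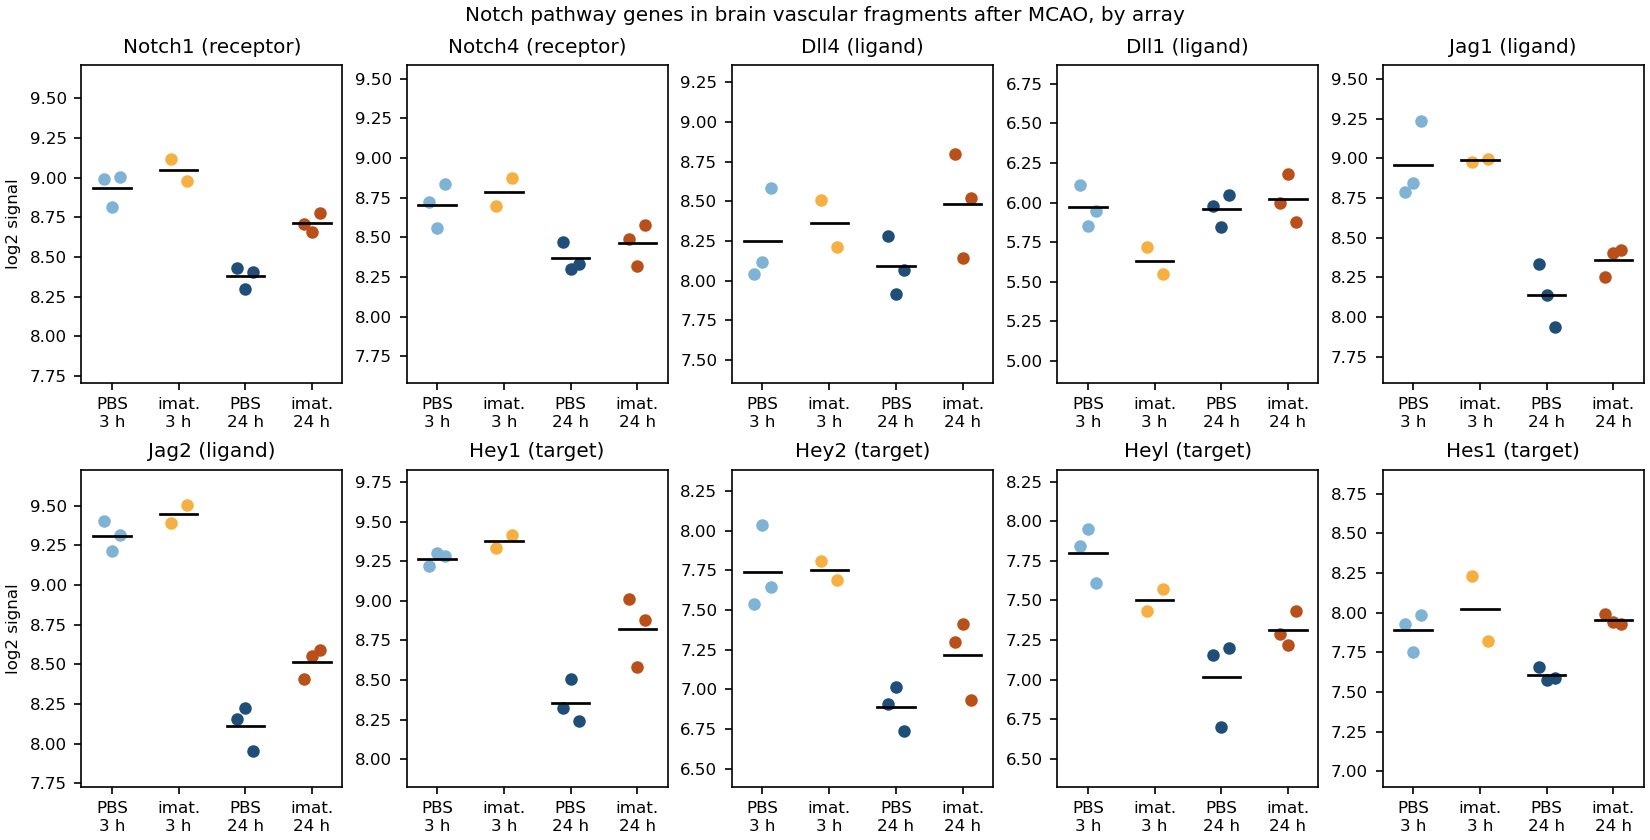
Log2 signal of the 10 genes (vertical axes, each spanning the same range) on every array of the 4 groups (horizontal axes), with points for arrays and bars for group means. Jag2 reads 9.21 to 9.41 in PBS at 3 h and 7.95 to 8.23 in PBS at 24 h, while the times overlap for Dll4 and Dll1.

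The order of the group means was shared by 6 genes (Notch1, Notch4, Jag1, Jag2, Hey1 and Hey2), with imatinib 3 h highest, then PBS 3 h, imatinib 24 h and PBS 24 h. PBS at 24 h was the lowest group for 9 of the 10 genes, the exception being Dll1, whose lowest group was imatinib at 3 h. The neighbours in that shared order that differ only in treatment, the groups at 3 h and those at 24 h, did not differ past the threshold for any of the 6 genes. The share of all genes with such an order was not counted, and the order rests on the same group means as the comparisons.

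Promoter sequence is shown for Jag2 and Hey2, so that the letters bound by RBPJ can be looked for in genes that fell together. RefSeq windows of 250 bases before the gene start (GRCm38.p6) were at hand for 7 of the 10 genes, with 2 windows for Dll1, and not for Hey1, Heyl or Hes1. They were searched on both strands for the RBPJ core TGGGAA, for the class B E box CACGTG and for the N box CACNAG, the letters Hes and Hey proteins are known to bind. The windows of Jag2 (chr12:112929496-112929745, minus strand), the gene with the largest difference, and of Hey2 (chr10:30842784-30843033, minus strand), with the only RBPJ core, read 5′ to 3′ as follows, with the core on its reverse strand in capitals.
Jag2: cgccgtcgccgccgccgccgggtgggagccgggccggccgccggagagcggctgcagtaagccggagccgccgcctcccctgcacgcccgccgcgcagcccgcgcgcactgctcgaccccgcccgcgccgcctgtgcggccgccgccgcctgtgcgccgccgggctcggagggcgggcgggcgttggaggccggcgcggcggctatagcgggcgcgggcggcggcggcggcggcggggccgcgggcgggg
Hey2: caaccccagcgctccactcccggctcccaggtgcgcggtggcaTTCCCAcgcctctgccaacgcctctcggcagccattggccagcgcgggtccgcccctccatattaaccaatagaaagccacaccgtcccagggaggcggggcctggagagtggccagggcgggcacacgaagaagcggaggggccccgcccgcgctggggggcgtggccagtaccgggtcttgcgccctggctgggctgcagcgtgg
The Hey2 core begins 207 bases before the start and was the only one in the 8 windows, while 21.6% of all 32851 windows held one. None of the 8 windows held the E box (6.02% of all windows), and 2, those of Notch1 and Dll4, held the N box (36.7%). Bases G and C made up 87.2% of the Jag2 window and 71.6% of that of Hey2. A match of letters does not show a bound site, and no match covers only these windows.

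The signals of cell type markers in the fragments moved with time as well. Of 18 endothelial markers, 11 were lower at 24 h in PBS and none higher, with a median difference of -0.45, and the mean of the list ran from 10.80 to 10.97 on the 3 h arrays and from 10.31 to 10.48 on those of 24 h. Of 6 arterial markers 3 were lower (median -0.63), and of 5 venous markers 1 was (median -0.018). The pericyte list had 8 of 11 lower, with a median of -0.67 and array means of 9.08 to 9.63 at 3 h and 8.55 to 8.80 at 24 h. The smooth muscle list had 4 of 11 lower (median -0.59), and PBS 24 h arrays spread from 8.05 to 8.96 on it, and the astrocyte list had 6 of 11 lower and 1 higher (median -0.51). Of 9 monocyte and macrophage markers 7 were higher (median 2.84), and of 10 neutrophil markers 4 were (median 0.84). Of 9 microglia markers 2 were higher and 2 lower (median -0.073). The part of these shifts in the differences of the Notch genes was not tested, beyond the scaling that follows.

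When each array was scaled to the mean of its 18 endothelial markers, the median difference of all genes moved to 0.44, and 63.3% of all genes were called higher and 1.71% lower. On that scale 4 of the 10 Notch genes were called lower at 24 h in PBS. Jag2 fell by 0.74, Hey1 by 0.45 (adjusted p = 0.0115), Hey2 by 0.39 (adjusted p = 0.0491) and Jag1 by 0.36 (adjusted p = 0.0203). Notch1 (-0.097, adjusted p = 0.465) and Heyl (-0.32, adjusted p = 0.108) were no longer called. Dll1 was called higher, by 0.45 (adjusted p = 0.0184), a value close to the shift of all genes. Because most genes were called on that scale, the same unadjusted p gave a smaller adjusted p there than as deposited. In limma the unadjusted p on that scale was 0.0318 for Hey2 and 0.0102 for Jag1. As deposited, Hes1 with 0.0311 and Notch4 with 0.0105 were not called. Jag1, Jag2, Hey1 and Hey2 were thus called lower on both scales, Jag1 and Hey2 on the second only under this milder adjustment. Notch1 and Heyl were called lower only as deposited.

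**Figure D2:**
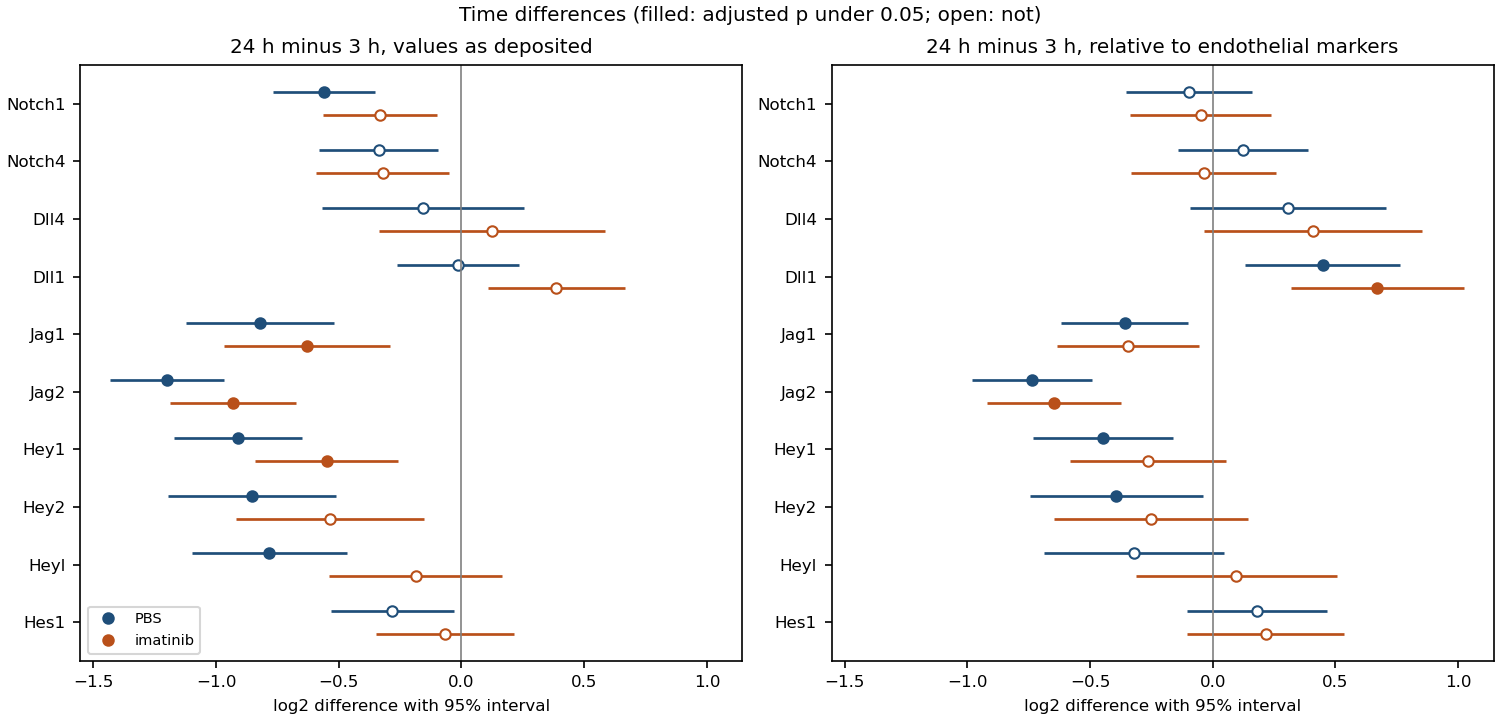
Differences between 24 h and 3 h on the log2 scale (horizontal axis, points with 95% intervals) for the 10 genes (vertical axis) in PBS and in imatinib, as deposited on the left and relative to 18 endothelial markers on the right. In PBS 6 genes are called lower as deposited and 4 on the right, where Notch4, Dll4, Dll1 and Hes1 lie above 0 and the median of all genes is 0.44.

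In imatinib-treated mice 3 of the 10 genes, Jag1, Jag2 and Hey1, were lower at 24 h than at 3 h, where 13.1% of all genes were called and 5.32% were called lower. The median difference was -0.33, against -0.038 over all genes, and 8 of 10 differences were below 0 as deposited (6 of 10 relative to the endothelial markers). Every 24 h array lay below the 3 h arrays in 7 of the 10, which held for 22.8% of all genes in this comparison of 3 arrays with 2.

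Jag2 read 9.39 and 9.50 on the imatinib arrays at 3 h and 8.41, 8.55 and 8.59 at 24 h. The times did not overlap, and Jag2 fell by 0.93 ± 0.12 (1.91-fold, adjusted p = 0.000436). This call stood without each array and relative to the endothelial markers (-0.65, adjusted p = 0.00293). Jag1 read 8.98 and 8.998 at 3 h and 8.25, 8.41 and 8.42 at 24 h, and fell by 0.63 ± 0.15 (adjusted p = 0.0187). Its 3 h arrays were nearly equal and lay above all of those at 24 h. The Jag1 call was lost without imatinib 24 h replicate 1 (-0.58, adjusted p = 0.0642). It was also lost without imatinib 3 h replicate 1 (-0.64) or replicate 2 (-0.62), where 1 array is left in that group and the difference hardly moved.

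Hey1 read 9.33 and 9.42 at 3 h and 9.01, 8.59 and 8.88 at 24 h, again without overlap, and fell by 0.55 ± 0.13 (adjusted p = 0.0184). The Hey1 call was lost without imatinib 24 h replicate 2 (-0.43, adjusted p = 0.0563). It was also lost without imatinib 3 h replicate 1 (-0.59) or replicate 2 (-0.51), where again 1 array is left in that group. Jag1 and Hey1 thus lost their calls without single imatinib arrays, and Jag2 did not. Relative to the endothelial markers neither Jag1 (-0.35, adjusted p = 0.0831) nor Hey1 (-0.27, adjusted p = 0.208) was called in imatinib.

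Hey2 read 7.81 and 7.69 at 3 h and 7.30, 7.41 and 6.93 at 24 h. Its difference was -0.53 ± 0.17 (adjusted p = 0.0700), and it passed without PBS 3 h replicate 2 (adjusted p = 0.0415), an array that enters only the shared estimate of spread. Notch1 read 9.12 and 8.98 at 3 h and 8.71, 8.66 and 8.78 at 24 h, with a difference of -0.33 ± 0.11 (adjusted p = 0.0628). Both genes were apart between the times and close to the threshold. Notch4 read 8.70 and 8.87 at 3 h and 8.49, 8.32 and 8.58 at 24 h, and its difference was -0.32 ± 0.12 (adjusted p = 0.123).

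Heyl read 7.44 and 7.57 at 3 h and 7.29, 7.22 and 7.43 at 24 h, nearly touching, with a difference of -0.19 ± 0.16 (adjusted p = 0.539). Hes1 (-0.069 ± 0.13, adjusted p = 0.811) and Dll4 (0.12 ± 0.21, adjusted p = 0.789) overlapped between the times. Dll1 was the single gene whose 24 h arrays (6.00, 6.18 and 5.88) all lay above those at 3 h (5.72 and 5.55). The Dll1 difference of 0.39 ± 0.13 missed the threshold as deposited (adjusted p = 0.0731) and passed relative to the endothelial markers (0.67, adjusted p = 0.0108), where the median of all genes was 0.25. The endothelial list had 6 of 18 lower over time in imatinib (median -0.30) and the pericyte list 0 of 11 (median -0.14). The smooth muscle list had 2 of 11 lower (median -0.38), and the astrocyte list 3 of 11 lower and 1 higher (median -0.27). Monocyte and macrophage markers were higher in 7 of 9 (median 2.36) and neutrophil markers in 3 of 10 (median 0.67), and the part of these lists in the Notch differences was not tested.

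Whether time acted differently under imatinib was tested by the interaction, which subtracts the treatment difference at 3 h from the one at 24 h. No gene of the 10 passed it (adjusted p of 0.900 to 0.996), so the smaller number of calls in imatinib is not shown to be a difference from PBS. All 10 interaction values were above 0 as deposited, from 0.017 for Notch4 to 0.60 for Heyl, with a median of 0.27. Of all genes 48.3% lay above 0, with a median of -0.0089. Relative to the endothelial markers 9 of the 10 were above 0, where the median of all genes was -0.19. An unadjusted p under 0.05 was reached by 2 of the 10 as deposited, Heyl and Dll1, where 5.49% of all genes reached it. Relative to the endothelial markers neither of them reached it (limma, unadjusted p = 0.126 for Heyl and 0.330 for Dll1). Beside these values, the interaction was above 0 for 18 of 18 endothelial markers (median 0.17), 6 of 6 arterial (0.37), 5 of 5 venous (0.30) and 11 of 11 pericyte markers (0.56), none past the adjusted threshold and 7 of the pericyte markers with an unadjusted p under 0.05. The part of these lists in the values of Heyl and the other Notch genes was not tested. Of all genes 0 passed the adjusted threshold and 1690 had an unadjusted p under 0.05.

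At 24 h imatinib and PBS did not differ past the threshold in any of the 10 genes, and of all 30790 genes 0 (0%) passed it in limma, with 1879 at an unadjusted p under 0.05. All 10 differences, imatinib minus PBS, were nevertheless above 0 as deposited, from 0.063 for Dll1 to 0.47 for Hey1, and 7 of 10 were above 0 relative to the endothelial markers, where the median of all genes was -0.28. The median as deposited was 0.33, against -0.011 over all genes, of which 47.1% lay above 0. This comparison shares the PBS 24 h arrays with the time course in PBS and the imatinib 24 h arrays with the time course in imatinib, so its values are not independent of either.

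In 5 genes (Notch1, Jag2, Hey1, Heyl and Hes1) every imatinib array lay above every PBS array at 24 h, where this held for 6.33% of all genes. An unadjusted p under 0.05 with the higher level in imatinib was reached by 4 genes, against 2.73% of all genes. Hey1 read 9.01, 8.59 and 8.88 in imatinib against 8.33, 8.51 and 8.24 in PBS, a difference of 0.47 ± 0.12. Jag2 read 8.41, 8.55 and 8.59 against 8.16, 8.23 and 7.95, a difference of 0.41 ± 0.11. Neither gene overlapped between the treatments.

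Notch1 read 8.71, 8.66 and 8.78 against 8.43, 8.30 and 8.41, a difference of 0.34 ± 0.095. Hes1 read 7.99, 7.94 and 7.93 against 7.65, 7.58 and 7.59, a difference of 0.35 ± 0.11, and both groups were tight. The adjusted p of these 4 genes, which had the unadjusted p under 0.05, was 0.803. Heyl was apart as well, with 7.29, 7.22 and 7.43 against 7.16, 6.70 and 7.20, and its difference of 0.30 ± 0.14 had an adjusted p of 0.830. The remaining genes overlapped, with differences of 0.40 ± 0.19 for Dll4, 0.33 ± 0.16 for Hey2, 0.22 ± 0.14 for Jag1, 0.098 ± 0.11 for Notch4 and 0.063 ± 0.11 for Dll1.

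The endothelial list had the same sign at 24 h: all 18 of its differences were above 0 (median 0.26), 14 with an unadjusted p under 0.05 and 0 past the adjusted threshold, and its array means ran from 10.63 to 10.74 in imatinib and from 10.31 to 10.48 in PBS. The pericyte list had 10 of 11 above 0 (median 0.28), and the monocyte and macrophage list had 8 of 9 below 0 (median -0.31). Relative to the endothelial markers the 10 Notch differences had a median of 0.065 and ran from -0.20 for Dll1 to 0.20 for Hey1, and none was called.

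**Figure D3:**
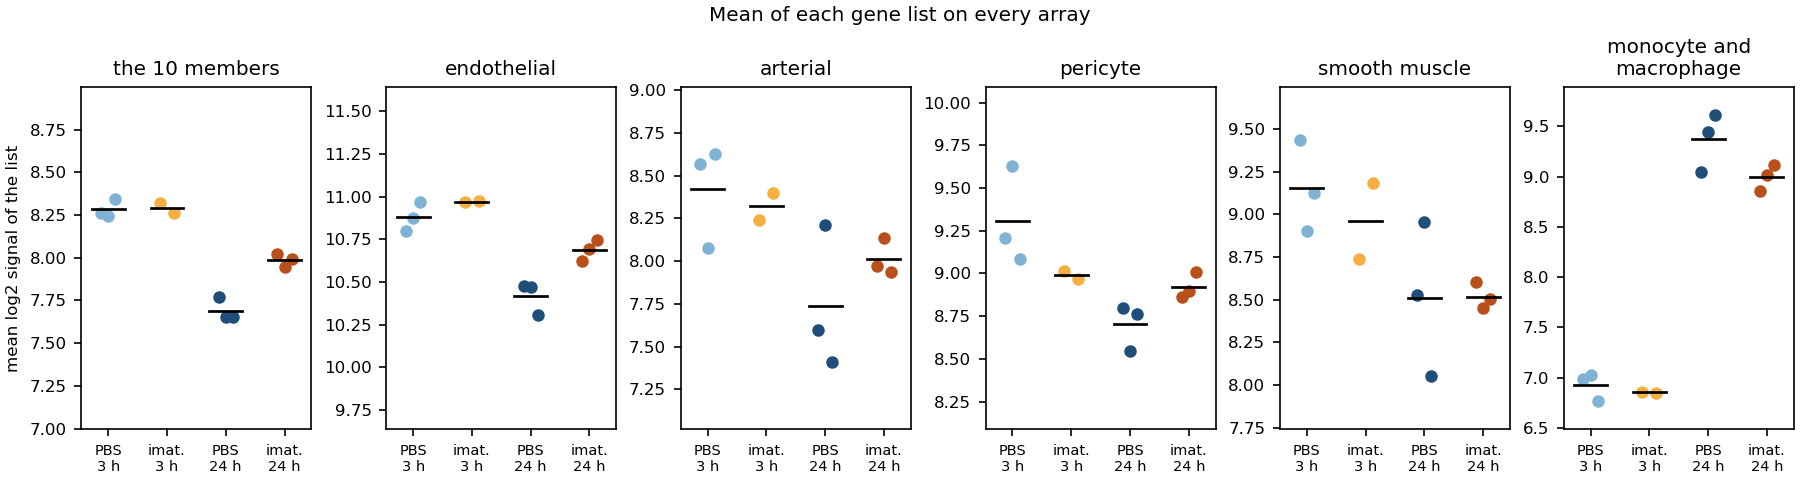
Mean log2 signal (vertical axes) of the 10 Notch genes and of 5 lists of cell type markers on every array of the 4 groups (horizontal axes), with points for arrays and bars for group means. The Notch genes average 8.28 in PBS and 8.29 in imatinib at 3 h, 7.69 in PBS and 7.99 in imatinib at 24 h, and the endothelial list 10.88, 10.97, 10.42 and 10.69 in the same order.

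At 3 h imatinib and PBS did not differ past the threshold in any of the 10 genes (adjusted p of 0.750 to 0.998), nor in any of all genes (1970 at an unadjusted p under 0.05). One gene, Dll1, had an unadjusted p under 0.05, where 6.4% of all genes had one in either direction. Dll1 read 5.72 and 5.55 in imatinib against 6.11, 5.85 and 5.95 in PBS, a difference of -0.34 ± 0.13 (adjusted p = 0.750). Both imatinib arrays were the lowest of the 11 arrays. Heyl read 7.44 and 7.57 in imatinib against 7.85, 7.95 and 7.61 in PBS, a difference of -0.30 ± 0.16 (adjusted p = 0.818), and the treatments did not overlap.

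Hey1 was apart in the other direction, with 9.33 and 9.42 in imatinib against 9.22, 9.30 and 9.28 in PBS. Its difference was 0.11 ± 0.13 (adjusted p = 0.943), and its closest arrays read 9.33 in imatinib and 9.30 in PBS. The share of all genes whose treatments were apart at 3 h was not counted. The separation of Dll1, Heyl and Hey1 therefore has no background to be read against. The other 7 differences at 3 h lay between 0.0082 and 0.14. The interval for Jag2 was -0.12 to 0.39 and that for Notch1 -0.12 to 0.34. Beside Heyl, the pericyte list had array means of 8.97 to 9.02 in imatinib and 9.08 to 9.63 in PBS at 3 h, and its part in the Heyl difference was not tested.

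**Figure D4:**
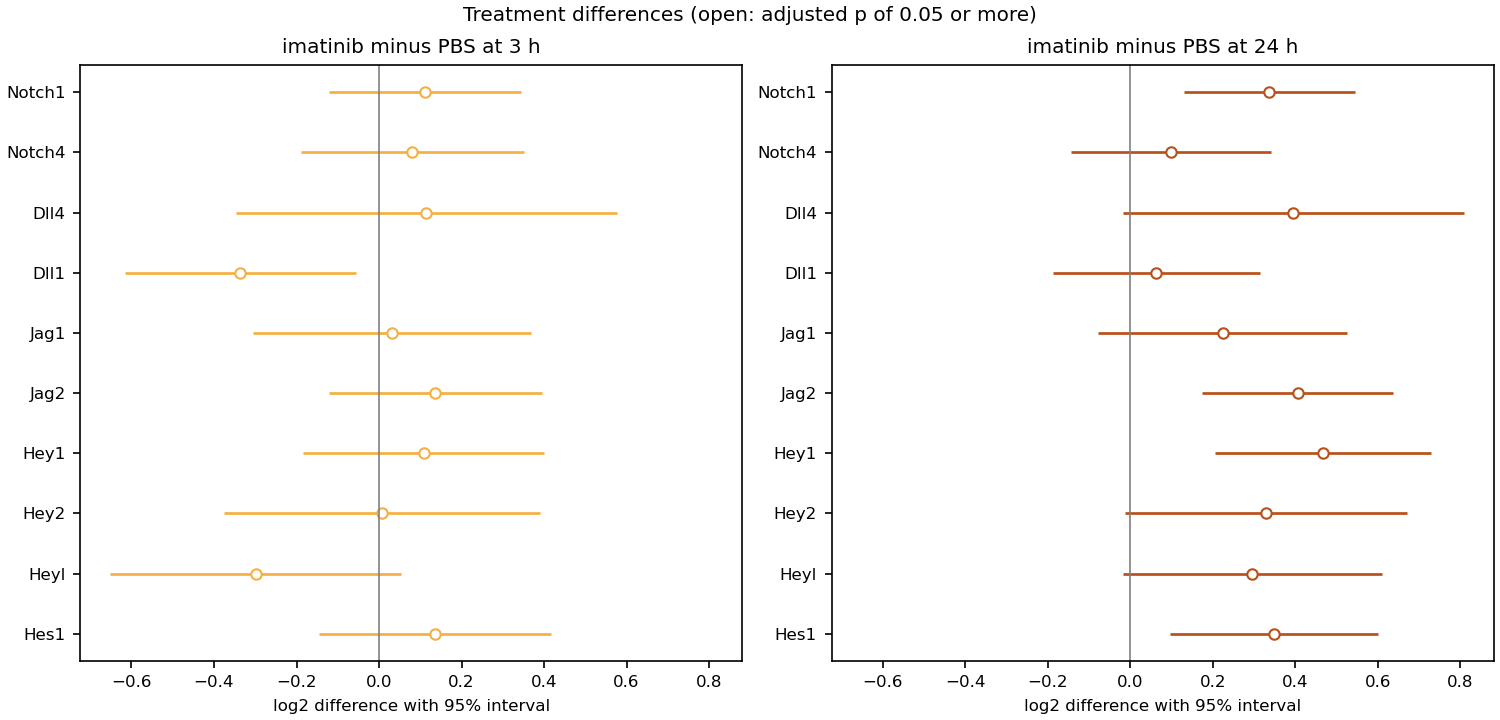
Differences between imatinib and PBS on the log2 scale (horizontal axes, points with 95% intervals) for the 10 genes (vertical axes) at 3 h and at 24 h, as deposited. No difference is past the adjusted threshold, and at 24 h the points run from 0.063 for Dll1 to 0.47 for Hey1, while relative to endothelial markers Notch4, Dll1 and Jag1 lie below 0.

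The rest of the pathway was followed in 65 further genes, grouped by step. Over time in PBS 7 of them were higher and 12 lower at 24 h, with a median of -0.061. Of all genes 16.6% were called in this comparison and 7.28% were called lower, with a median of -0.021. The same shares stand beside the counts by step that follow. In imatinib 7 of the 65 were higher and 6 lower (median -0.043), where 13.1% of all genes were called and 5.32% were called lower. Between the treatments at 24 h 0 of the 65 passed limma's adjusted threshold. An unadjusted p under 0.05 was reached by 3 of them, beside 1879 of all 30790 genes. Relative to the endothelial markers 41 of the 65 (63.1%) were called over time in PBS, all 41 as higher, beside 65.02% of all genes called on that scale. Receptors outside the 10 were represented by Notch2, which was not called, and by Notch3, the receptor of mural cells, which read 7.82, 7.62 and 7.41 in PBS at 3 h and 6.996, 6.95 and 6.99 at 24 h. Notch3 fell by 0.64 ± 0.12 (adjusted p = 0.00265) as deposited, and relative to the endothelial markers its difference was -0.17 and not called (adjusted p = 0.287). The pericyte list, with 8 of 11 lower, is given above, and its part in the Notch3 difference was not tested. In imatinib Notch3 read 7.22 and 7.19 at 3 h and 7.06, 6.95 and 7.22 at 24 h, which overlapped.

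None of the 5 other ligands was called, and the smallest p was that of Dlk1 (-0.27 ± 0.11, adjusted p = 0.122). Of 10 genes of receptor cleavage, 2 rose in PBS and 1 fell. Psenen, a subunit of gamma-secretase, rose by 0.45 ± 0.084 (adjusted p = 0.00324), and Psen2, another of its subunits, fell by 0.61 ± 0.16 (adjusted p = 0.0213). Of 5 genes of receptor glycosylation, Poglut1 rose by 0.47 ± 0.11 (adjusted p = 0.0137). Of 13 genes of endocytosis and turnover, Dtx4 rose by 0.63 ± 0.13 (adjusted p = 0.00639), its relative Dtx3 fell by 0.65 ± 0.11 (adjusted p = 0.0018), and Mib1, the ubiquitin ligase that activates ligands, fell by 0.28 ± 0.087 (adjusted p = 0.0480).

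In the nucleus, the acetyltransferase Kat2a rose by 0.87 ± 0.12 (adjusted p = 0.000372), while the coactivator Maml1 fell by 0.51 ± 0.10 (adjusted p = 0.00463) and the acetyltransferase Ep300 by 0.34 ± 0.088 (adjusted p = 0.0202), 3 of 8 genes of that step. Of 12 corepressors 2 rose and 4 fell. Hdac2 rose by 0.41 ± 0.10 (adjusted p = 0.0158) and Hdac1 by 0.36 ± 0.089 (adjusted p = 0.0149), and Tle1 and the demethylase Kdm5a each fell by 0.68 (adjusted p = 0.00554 and 0.0013). These calls are of the values as deposited. Relative to the endothelial markers, the genes of receptor cleavage, turnover and the nucleus named here as lower were not called: Psen2 (-0.15, adjusted p = 0.406), Dtx3 (-0.19, adjusted p = 0.208), Maml1 (-0.046, adjusted p = 0.730), Tle1 (-0.22, adjusted p = 0.159) and Kdm5a (-0.22, adjusted p = 0.180) stayed below 0, and Mib1 (0.18) and Ep300 (0.12) lay above it.

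Of 10 other targets 2 fell. Gja4, a gap junction protein of arterial endothelium, read 9.24, 8.997 and 9.20 in PBS at 3 h and 8.63, 8.50 and 8.35 at 24 h, and fell by 0.65 ± 0.16 (adjusted p = 0.0143). Efnb2, the arterial ephrin, read 8.05, 8.10 and 8.25 at 3 h and 7.57, 7.86 and 7.39 at 24 h, and fell by 0.53 ± 0.14 (adjusted p = 0.0257). The 3 h and 24 h arrays of both were apart, and neither was called relative to the endothelial markers (-0.19 and -0.070). Gja5, another gap junction gene of arterial endothelium, singled out here after its values were seen, was not called and had differences of 0.17 in PBS (adjusted p = 0.638) and 0.62 in imatinib (adjusted p = 0.0769).

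Of the 16 named genes that passed in PBS, 8 kept their call without each array and 8 lost it without some. The call of Mib1 (-0.33 to -0.24) was lost without 10 of the 11 arrays, with adjusted p up to 0.140. Leaving out PBS 3 h replicate 3 ended the calls of Psen2 (-0.43, adjusted p = 0.0672), Ep300 (-0.33, adjusted p = 0.0567) and Efnb2 (-0.47, adjusted p = 0.0877), PBS 3 h replicate 2 that of Efnb2 (-0.55, adjusted p = 0.0535), and PBS 3 h replicate 1 those of Poglut1 (0.38, adjusted p = 0.0502) and Hdac2 (0.32, adjusted p = 0.0528). At 24 h, PBS replicate 1 ended those of Poglut1 (0.40, adjusted p = 0.0613), Ep300 (-0.30, adjusted p = 0.0790) and Efnb2 (-0.51, adjusted p = 0.0779), and PBS replicate 2 those of Psen2 (-0.54, adjusted p = 0.0774) and Hdac2 (0.38, adjusted p = 0.0540). PBS 24 h replicate 3 ended those of Psen2 (-0.58, adjusted p = 0.0712), Hdac1 (0.33, adjusted p = 0.0605), Gja4 (-0.58, adjusted p = 0.0607) and Efnb2 (-0.43, adjusted p = 0.106).

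**Figure D5:**
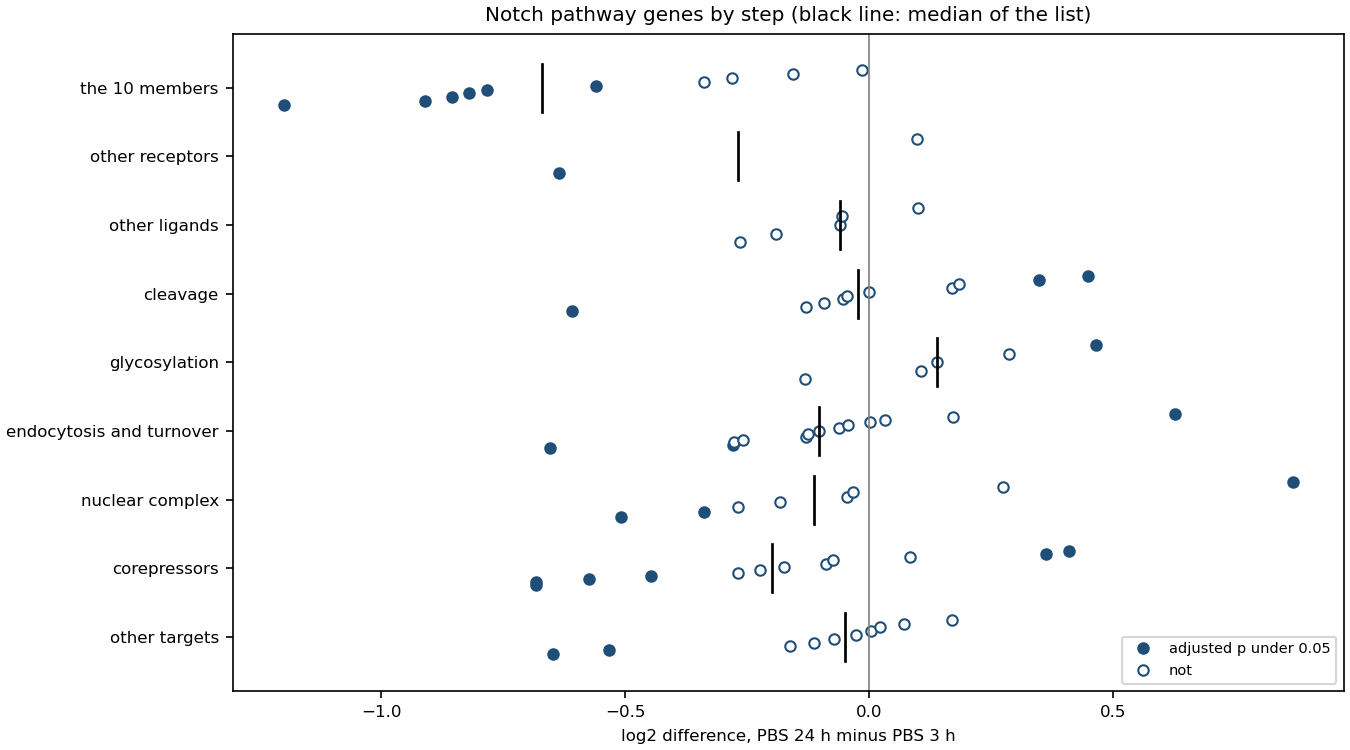
Differences between 24 h and 3 h in PBS on the log2 scale as deposited (horizontal axis) for the 10 genes and for 65 further pathway genes by step (vertical axis), with filled points for adjusted p under 0.05 and black lines for medians. The 10 genes have a median of -0.67, and relative to the endothelial markers, not drawn here, 4 of the 10 lie above 0. On that scale 41 of the 65 further genes are called higher and their median is 0.40. Dlk1, Mib1 and Ep300, below 0 as drawn, lie above 0 there.

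The genes whose pattern over the 11 arrays was most like that of each called member were found among 18342 genes by the root mean square difference, in log2 units, after centring each gene on its mean. For Notch1 they were Inpp5a (0.060), Pxn (0.065) and Git1 (0.068), and for Jag1 Tmem2 (0.086), Fry (0.096) and Tsc22d1 (0.098). For Jag2 they were S1pr1 (0.098), a sphingosine-1-phosphate receptor of endothelium, Map4k2 (0.099) and Thbd (0.0999), the anticoagulant thrombomodulin. For Hey1 they were Tenc1 (0.12), Gabarapl1 (0.12) and Dlc1 (0.13), and for Hey2 Tmem204 (0.14), Acsl3 (0.15) and Map7 (0.15). For Heyl they were Whrn (0.12), Rgs5 (0.12), a pericyte marker of the list above, and Pla1a (0.13). Within the 10 genes the most alike pair was Notch1 and Notch4 (0.13) and the least alike Dll1 and Jag2 (0.65).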

How the data were processed

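The authors deposited log2 signals per probe set, summarised by RMA with Affymetrix Expression Console, per the submitters' processing notes, which also name limma. Per the labels' protocols, 10 ng of total RNA per sample was amplified and biotin-labelled with NuGEN kits. The array type, genome build and tool versions were not given in the sources used here. Arrays have no depth, and their number limits the precision. Of 33793 probe sets, 1591 without a symbol, 128 with several and 14 whose symbol had become a date were left out, and 730 genes with several probe sets kept the one of highest mean.

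Samples were grouped by the labels. One mean per group was fitted on all 11 arrays in limma 3.58.1 (R 4.3.3) with empirical Bayes (residual degrees of freedom 7, prior 4.37), and p was adjusted by Benjamini-Hochberg over 30790 genes with a threshold of 0.05. The limma fit was run on simulated data with independent noise and far fewer changed genes than were called here, and its outcome is not reported. Members and lists were chosen with earlier results of these data known. All 10 members are reported. Of each pathway step, the 2 largest changes in each direction that passed in PBS over time are named, or else that with the smallest p, and 1 gene so chosen is not reported here. Likeness names the 3 nearest genes. Alternatives were other fits (only the groups compared, trend and robust, array weights, replicate block), quantile normalization, scaling to 18 endothelial markers, a filter at the 25th percentile on at least 2 arrays, all probe sets, the mean of a symbol's probe sets, and leaving out each array. Promoter windows are from RefSeq. A planned comparison of proteins was not made. Figures were drawn with matplotlib 3.10.9.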

Additional observations from a re-analysis of the deposited data

Results flagged for a closer look

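The imatinib difference of Heyl had opposite signs at the 2 times, and neither difference passed the threshold (adjusted p = 0.818 at 3 h and 0.830 at 24 h in limma). At 3 h both imatinib arrays lay below all PBS arrays (-0.30, imatinib minus PBS), and at 24 h all 3 imatinib arrays lay above all PBS arrays (0.30). The difference between these differences was 0.60 ± 0.22 (SE), with an adjusted p of 0.900 over all genes in limma's interaction test. It failed the correction, and its unadjusted p was under 0.05 as deposited. Relative to the endothelial markers the difference was -0.39 at 3 h and 0.029 at 24 h, and the interaction was 0.42 (limma, unadjusted p = 0.126). As deposited the closest arrays were 7.57 in imatinib and 7.61 in PBS at 3 h, and 7.22 and 7.20 at 24 h. Heyl is flagged here for its opposite directions, and the share of all genes with such a pattern was not counted. The pericyte markers had differences below 0 in 11 of 11 genes at 3 h (median -0.27) and above 0 in 10 of 11 at 24 h (median 0.28), and their part in the Heyl values was not tested.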

How the results depend on the processing

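Over 20 settings and 68 values, 1235 of 1350 alternative values for single genes kept their direction and side of the threshold, 64 lost the call, 11 gained it and 40 changed sign, 37 of the latter past the threshold in neither setting. Many of the 68 values were not called in the main fit and had no call to lose. Some settings could not move a difference, since each member has 1 probe set and an array outside the groups compared does not enter it. The 1235 are therefore not a measure of stability. The members called over time in PBS, in either direction, stayed between 5 and 7. Relative to endothelial markers 4 of these calls were lower and 1, that of Dll1, was higher, and Notch1 and Heyl were not called. In imatinib the count was 5 with trend and robust variances and with quantile normalization, and 1 to 4 leaving out 1 array. The other pathway genes called in PBS were 11 with only the groups compared and 41 relative to endothelial markers, and in imatinib 5 to 15 leaving out 1 array. The cause was not tested. Arrays of different groups that share a replicate number had deviations from their group means that correlated at -0.037 to 0.058 in 15 pairs. Deviations within a group of 2 or 3 arrays sum to 0, so these values do not settle whether arrays were paired. With the replicate block 6 members were called in PBS and 3 in imatinib, and signs changed for Hey2 at 3 h (-0.080) and the Notch4 interaction (-0.019). The sign also changed with array weights for Dll1 in PBS (0.0046) and Hey2 at 3 h (-0.015), and with quantile normalization for the Notch4 interaction (-0.0036). Relative to endothelial markers it changed in PBS over time for Notch4 (0.12), Dll4 (0.31), Dll1 (0.45), Hes1 (0.18), Dlk1 (0.20), Mib1 (0.18) and Ep300 (0.12), in imatinib for Heyl (0.097) and Hes1 (0.22), at 3 h for Notch4 (-0.0087), Jag1 (-0.058) and Hey2 (-0.081), at 24 h for Notch4 (-0.17), Dll1 (-0.20) and Jag1 (-0.044), and for the Notch4 interaction (-0.16). Leaving out 1 array, values ran across 0 over time in PBS for Dll4 (-0.26 to 0.012) and Dll1 (-0.074 to 0.057), in imatinib for Dll4 (-0.031 to 0.30) and Hes1 (-0.27 to 0.14), at 3 h for Notch4 (-0.0050 to 0.17), Dll4 (-0.033 to 0.28), Jag1 (-0.053 to 0.17), Hey2 (-0.092 to 0.16) and Hes1 (-0.069 to 0.34), at 24 h for Dll1 (-0.018 to 0.13), and for the Notch4 interaction (-0.069 to 0.10). A fit of only the groups compared gives no interaction. The number of arrays, 2 or 3 a group, limits the precision.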
